A study of Drosophila melanogaster with 16 samples.

Results

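The genes described here encode subunits of the oxidative phosphorylation machinery of Drosophila melanogaster. They were chosen by symbol, as genes whose name in the array's annotation starts with ND- (complex I), Sdh (complex II), UQCR (complex III), COX (complex IV) or ATPsyn (complex V). This gave 70 genes, measured by 74 probes, of 11980 named genes on the array: 31 of complex I, 7 of complex II, 5 of complex III, 14 of complex IV and 13 of complex V. The RefSeq gene table of the fly lists 91 symbols with these prefixes, and the other 21 were not among the named genes on the array. A further 3 probes carry an ND- name beside names of other genes and were left out.

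Oxidative phosphorylation makes most of a cell's ATP in the inner mitochondrial membrane. Complex I takes electrons from NADH and complex II from succinate, complex III passes them to cytochrome c, complex IV hands them to oxygen, and complex V, the ATP synthase, uses the proton gradient built on the way to make ATP. Most subunits are encoded in the nucleus, and the fly genome also carries paralogs of many of them, several of which are known for expression mainly in the testis.

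The arrays compared RNA from cells with activated Notch, a receptor cut at the membrane so that its inner part enters the nucleus, with RNA from cells without that activation. DmD8 is a fly line derived from imaginal disc and Kc one from embryos. Both were exposed for 30 minutes to 2 mM EDTA, a chelator that triggers the cutting of Notch. The medium held fetal calf serum and insulin, antibiotics were added, and cultures were replated before activation; the label text for this names DmD8 on the Kc arrays too. Kc was compared with control cells given buffer alone. DmD8 was compared, by 1 set of labels, with such control cells, and by another with cells that had spent the night in 300 µM DFK-167, which blocks the presenilin protease that cuts Notch, before the same EDTA. Both sets of 5 DmD8 columns held the same values (71019 pairs, largest difference 4.87e-08), so the DmD8 comparison RNA is 1 of these and the arrays were counted once, as 5 of DmD8 and 6 of Kc. An effect of EDTA apart from that on Notch cannot be told apart from activation in Kc. The same holds in DmD8 if its comparison RNA came from cells given buffer alone. If it came from cells given DFK-167, an effect of that drug apart from Notch cannot be told apart there. In each line the first 3 arrays had activated RNA in Cy5 and the others were dye swaps. Per the labels there were 3 biological replicates per experiment, so standard errors and p-values over arrays are too small.

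A ratio above 0 means more RNA in activated cells. That direction is likely and not stated: the values of E(spl)m3-HLH, a repressor gene that Notch is known to switch on, lay between 0.33 and 1.80 on the 5 DmD8 arrays and between 3.92 and 4.55 on the 6 Kc arrays, in both dye orientations. The log base was taken as 2 and could be the natural one, so all values are log ratios and no folds are given. Ratios carry no expression level, so cell identity could not be checked against marker levels. Values were present for 13353 to 15638 of 17258 probes per array. Less of a transcript per cell and fewer cells that make it cannot be told apart in such ratios.

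Most of the subunit genes had a value on every array. Paralogs were told by a final L, alone or with a digit, the mark of a "like" gene; ND-MNLL, whose letters belong to its own name, was counted as a subunit. Of the other 51 genes 48 had a value on all 11 arrays and 49 could be tested, which took 3 values and both dye orientations in each line. Of the 19 paralogs 3 had a value on every array and 10 could be tested. In all, 59 of the 70 genes were tested: 28 of complex I, 5 of complex II, 4 of complex III and 11 each of complexes IV and V. Of all 16580 features on the array 12952 were tested. The tested genes were thus mostly the subunits themselves, and the paralogs were those with gaps.

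**Figure D1:**
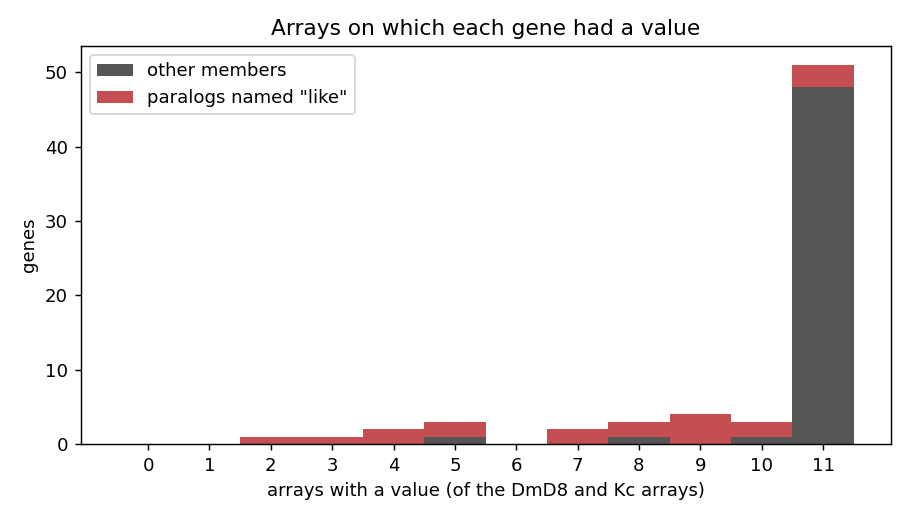
Number of genes (vertical axis) by the number of the 11 DmD8 and Kc arrays on which they had a value (horizontal axis), with paralogs named as "like" in red and the other genes in grey. The column at 11 holds 51 genes, 3 of them paralogs.

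None of the 59 tested genes passed the threshold in either line (limma, adjusted p under 0.05 over all 12952 features tested). In DmD8 0 of 59 were called, against 7.24% of all features (3.08% higher and 4.16% lower). In Kc 0 of 59 were called, against 11.9% of all features (7.10% higher and 4.81% lower). At an unadjusted p under 0.05 there were 4 in DmD8 and 7 in Kc, where all features gave 19.7% and 24.6%. These calls rest on reading the dye swaps as already turned to activated over comparison RNA by the authors. As deposited, E(spl)m3-HLH lay above 0 in both orientations of both lines. With the swap signs turned, the fitted mean is the dye term described below. It was called for 12 genes in DmD8 (20.3%, against 17.1% of all features) and 17 in Kc (28.8%, against 20.0%). With the swaps left out, 0 of 58 were called in DmD8 (6.37% of all features), 11 of 58 in Kc (16.5%) and 0 of 58 for the difference between the lines (1.46%).

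A missed threshold does not show that a transcript was unchanged, so the intervals matter here. They rest on the standard errors over arrays, which are too small, so the intervals are too narrow. In DmD8 the 95% interval of the mean lay between -0.5 and 0.5 for 58 of 59 genes, and for 75.2% of all features; the exception was the paralog ND-B14.5AL. In Kc it did so for 55 of 59, and for 81.0% of all features, the exceptions being ND-B14.5AL, UQCR-11L, COX6AL2 and ATPsynC. The fitted means ran from -0.25 to 0.21 in DmD8 and from -0.44 to 0.29 in Kc. Their median was -0.07 in DmD8, where that of all features was -0.04, and 0.00 in Kc, where that of all features was 0.01. In DmD8 48 of 59 means were below 0, and of all 12952 features 7564. In Kc 29 of 59 were below 0. The median standard error was 0.08 in DmD8 and 0.07 in Kc, and the median absolute mean was 0.08 in each line.

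**Figure D2:**
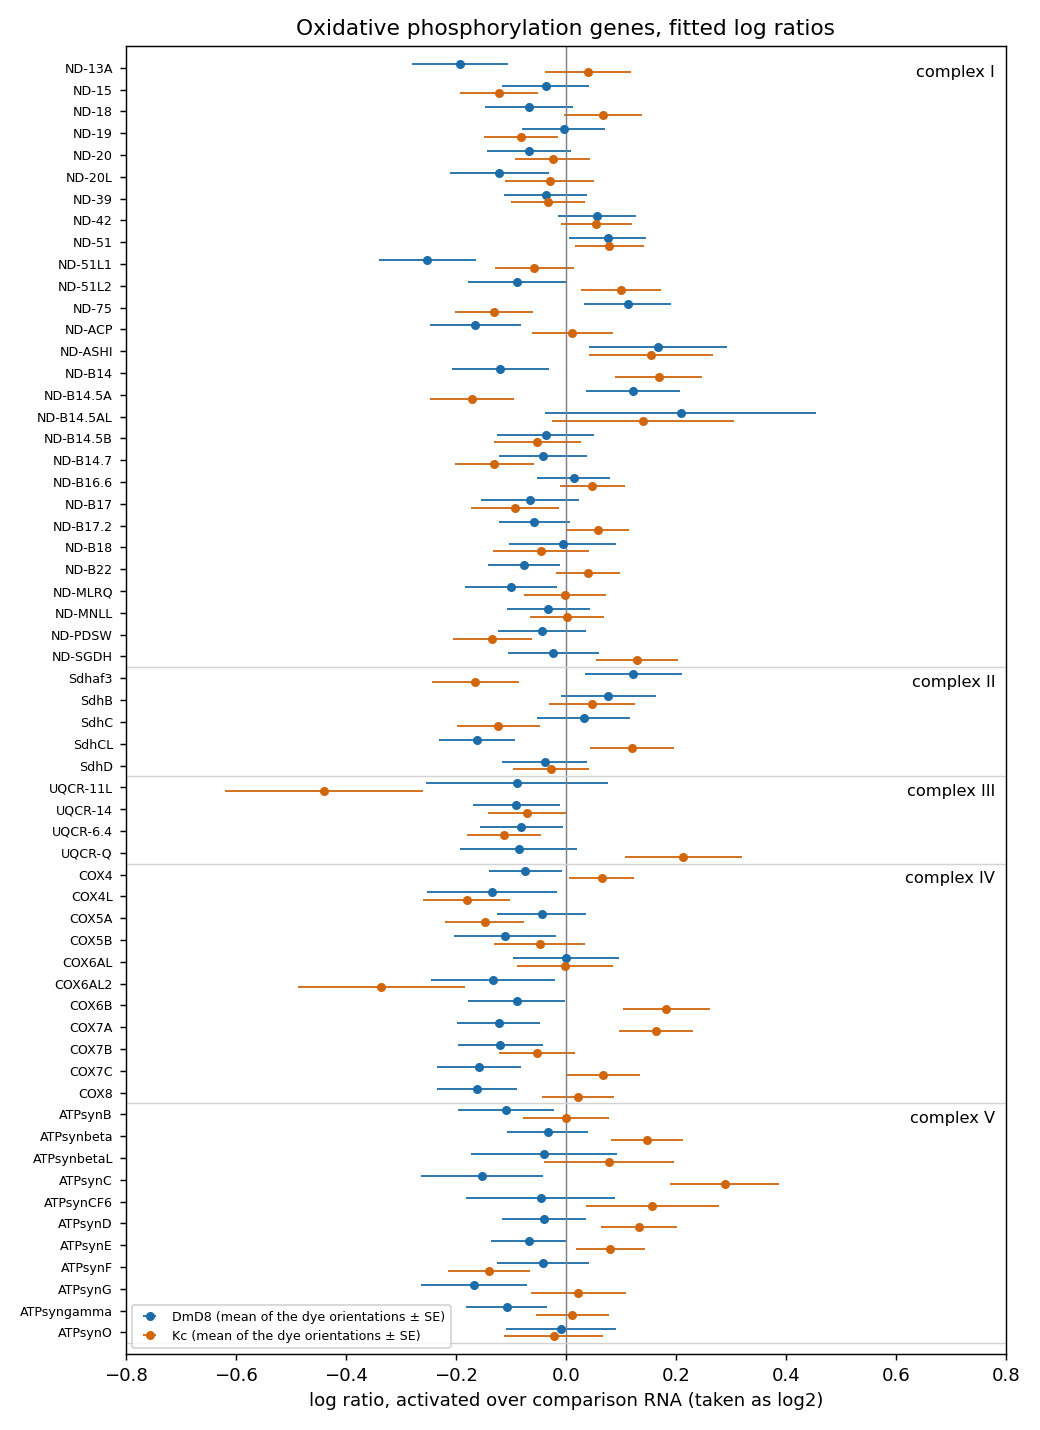
Fitted log ratio of each tested gene (horizontal axis, mean of the dye orientations, bars ± 1 standard error) in DmD8 (blue, 5 arrays) and Kc (orange, 6 arrays), grouped by complex. Means lie between -0.25 and 0.21 in DmD8 and between -0.44 and 0.29 in Kc, and no gene passed the threshold.

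Complex I oxidises NADH through a peripheral arm of core subunits and holds many accessory subunits. Its 28 tested genes had a median of -0.04 in DmD8 and 0.00 in Kc. ND-51, the subunit that binds NADH, lay at -0.02, 0.14, 0.04, 0.03 and 0.16 on DmD8 arrays 1 to 5 and from -0.03 to 0.18 in Kc (median 0.09). Its mean was 0.08 ± 0.07 in DmD8 and 0.08 ± 0.06 in Kc, and the 95% interval of the line difference ran from -0.21 to 0.20. ND-75, the large iron-sulfur subunit next to it, had values of -0.17, -0.05 and -0.17 on the DmD8 arrays with activated RNA in Cy5 and 0.54 and 0.17 on the swaps. Its sign thus differed between the dye orientations, and its mean was 0.11 ± 0.08.

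The accessory subunit ND-B14 lay at 0.19, -0.06, 0.12, -0.09 and -0.55 in DmD8 and from -0.10 to 0.29 in Kc (median 0.22). It had the highest Kc mean of the complex, 0.17 ± 0.08 (limma, adjusted p = 0.213), and its arrays overlapped between the lines. ND-B14.5A, another accessory subunit, had the lowest, with values from -0.46 to 0.18 and a mean of -0.17 ± 0.08 (adjusted p = 0.191); in DmD8 it lay at 0.01, -0.08, -0.21, 0.47 and 0.21. The extremes of DmD8 were both paralogs with missing arrays. ND-51L1 lay at -0.28, -0.56, -0.11 and -0.04 on 4 arrays, all below 0, with a mean of -0.25 ± 0.09 (adjusted p = 0.133). ND-B14.5AL lay at -0.56, 0.80 and 1.16 on 3 arrays, with a mean of 0.21 ± 0.25.

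Complex II is the succinate dehydrogenase shared with the citric acid cycle. Its 5 tested genes had a median of 0.03 in DmD8 and -0.03 in Kc. SdhB, the iron-sulfur subunit, had means of 0.08 ± 0.09 in DmD8 and 0.05 ± 0.08 in Kc. The membrane anchors SdhC and SdhD had means of 0.03 ± 0.08 and -0.04 ± 0.08 in DmD8 and -0.12 ± 0.08 and -0.03 ± 0.07 in Kc. Sdhaf3, which the prefix takes in although it is an assembly factor and no subunit, had the highest DmD8 mean (0.12 ± 0.09) and the lowest Kc mean (-0.16 ± 0.08) of the group, neither past the threshold.

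The paralog SdhCL lay at -0.18, -0.16, -0.11, -0.20 and -0.14 on the 5 DmD8 arrays and from 0.01 to 0.21 on the 4 Kc arrays with a value (median 0.13). As deposited, without centring of the arrays, all DmD8 values were below 0 and below every Kc value, in both dye orientations. Its means were -0.16 ± 0.07 in DmD8 (limma, adjusted p = 0.232) and 0.12 ± 0.08 in Kc (adjusted p = 0.391), with a difference of -0.28 ± 0.10 (adjusted p = 0.117).

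Of complex III, which passes electrons from ubiquinol to cytochrome c, 4 small subunit genes were tested, all with DmD8 means between -0.09 and -0.08. In Kc UQCR-Q, a small membrane subunit, had a mean of 0.21 ± 0.11 on 5 arrays (values from -0.28 to 0.79), UQCR-14 one of -0.07 ± 0.07 and UQCR-6.4 one of -0.11 ± 0.07. The paralog UQCR-11L had the lowest Kc mean of all members, -0.44 ± 0.18 on 4 arrays that ran from -1.48 to 0.70 (limma, adjusted p = 0.164). It passed without Kc array 6 (-0.70, adjusted p = 0.041; over all alternatives adjusted p ran from 0.0209 to 0.693), so this value rests on few and scattered arrays.

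The 11 tested genes of complex IV, cytochrome c oxidase, had a median of -0.12 in DmD8, with 10 of 11 means below 0, and of 0.00 in Kc. Of all 12952 features 7564 had DmD8 means below 0. COX8, a small membrane subunit, lay at -0.25, -0.32, -0.40, 0.12 and -0.11 in DmD8, with a mean of -0.16 ± 0.07 (limma, adjusted p = 0.247), and at 0.02 ± 0.07 in Kc. COX4, the largest nuclear subunit, had a mean of -0.07 ± 0.07 in DmD8 and 0.07 ± 0.06 in Kc. COX5A and COX5B, its neighbours on the matrix side, had DmD8 means of -0.04 ± 0.08 and -0.11 ± 0.09 and Kc means of -0.15 ± 0.07 and -0.05 ± 0.08. None of these intervals reached beyond -0.5 or 0.5.

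COX6B, on the outer face of the complex, lay between 0.11 and 0.38 on all 6 Kc arrays (median 0.16), the highest Kc mean of complex IV at 0.18 ± 0.08 (limma, adjusted p = 0.174). In DmD8 it lay at -0.28, -0.21, -0.18, 0.34 and -0.25, so that 1 swap array stood above the other 4. The paralog COX6AL2 had the lowest Kc mean of complex IV, -0.34 ± 0.15 on 3 arrays that ran from -0.86 to 0.51 (limma, adjusted p = 0.218). The paralog COX6AL had the highest DmD8 mean of the complex, 0.00 ± 0.10. COX7A, another small membrane subunit, lay at -0.12, -0.24, -0.26, -0.04 and -0.04 in DmD8 and from -0.01 to 0.36 in Kc (median 0.18). As deposited, without centring of the arrays, every DmD8 value of COX7A was below every Kc value. All arrays shared 1 sign for 3 of 59 genes in DmD8 (ND-51L1, SdhCL and COX7A; 14.6% of all features) and 2 of 59 in Kc (SdhCL and COX6B; 12.8%).

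Complex V, the ATP synthase, has a rotor with a ring of c subunits in the membrane, a catalytic head and a peripheral stalk. All 11 tested genes had DmD8 means below 0 (median -0.05), and 8 of 11 had Kc means above 0 (median 0.08), in each case without a call. ATPsynC, the c subunit, lay at 0.09, 0.41, 0.19, -0.81 and -0.26 on DmD8 arrays 1 to 5 and from -0.47 to 1.04 in Kc (median 0.23). In both lines its arrays with activated RNA in Cy5 were above 0 and its swaps below, so neither set of arrays keeps 1 sign. The Kc mean of the orientations, 0.29 ± 0.10, was the highest of all members (limma, adjusted p = 0.0866); the DmD8 mean was -0.15 ± 0.11. Without Kc array 2 the Kc mean was 0.36 and passed (adjusted p = 0.0457; over all alternatives adjusted p ran from 0.00886 to 0.584).

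ATPsynbeta, the catalytic subunit, lay from -0.09 to 0.51 in Kc (median 0.15), with a mean of 0.15 ± 0.07 (limma, adjusted p = 0.192) and a DmD8 mean of -0.03 ± 0.07. ATPsyngamma, the central stalk, stood at -0.11 ± 0.07 and 0.01 ± 0.07 in DmD8 and Kc. ATPsynO, which joins the peripheral stalk to the head, stood at -0.01 ± 0.10 and -0.02 ± 0.09, and ATPsynCF6, also of that stalk, at -0.05 ± 0.14 and 0.16 ± 0.12. ATPsynG of the membrane sector had the lowest DmD8 mean of the complex (-0.17 ± 0.10, adjusted p = 0.357) and ATPsynF the lowest Kc mean (-0.14 ± 0.07, adjusted p = 0.285).

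**Figure D3:**
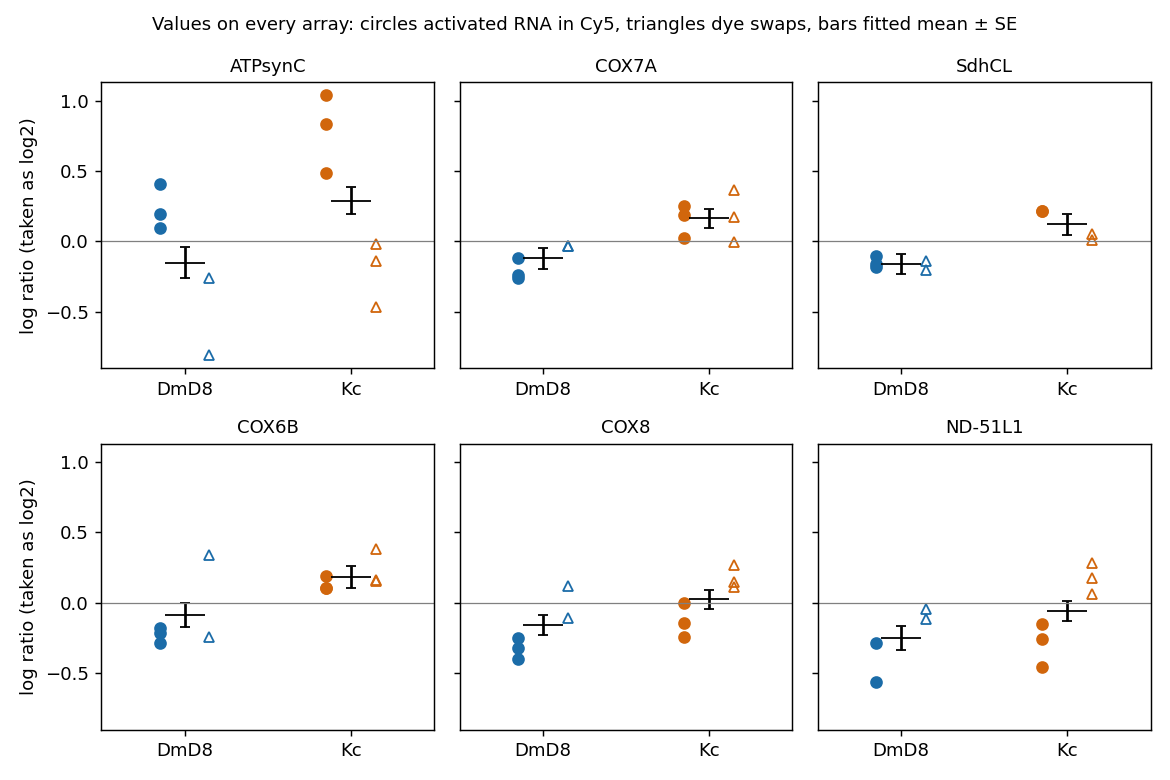
Log ratio on every array (vertical axis) for 6 genes named above, by line, with filled circles for arrays with activated RNA in Cy5, open triangles for dye swaps and black bars for the fitted mean ± 1 standard error. SdhCL and COX7A are the genes whose lines do not overlap in the deposited, uncentred values. ATPsynC runs from -0.81 to 0.41 in DmD8 and from -0.47 to 1.04 in Kc, above 0 on the circles and below 0 on the triangles.

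The difference between the lines, DmD8 minus Kc, may lie in the cells or in the comparison RNA, which cannot be told apart. It passed for 0 of 59 genes (limma, adjusted p under 0.05), against 10.9% of all features (4.42% higher and 6.51% lower), and for 9 at an unadjusted p under 0.05, against 24.9%. The lowest difference was that of ATPsynC (-0.44 ± 0.15, adjusted p = 0.083), followed by those of UQCR-Q (-0.30 ± 0.15, adjusted p = 0.248), ND-B14 (-0.29 ± 0.12, adjusted p = 0.153) and COX7A (-0.29 ± 0.10, adjusted p = 0.0999). The highest were those of UQCR-11L (0.35 ± 0.24, adjusted p = 0.405) and ND-B14.5A (0.29 ± 0.11, adjusted p = 0.133). In the values as deposited SdhCL and COX7A were the 2 of 59 genes (3.39%) whose arrays did not overlap between the lines. The share over all features was 6.17%. Those values are not centred, and array medians ran from -0.13 (DmD8 array 1) to 0.16 (Kc array 6). With each array centred on its median the differences were -0.20 for SdhCL (limma, adjusted p = 0.295) and -0.22 for COX7A (adjusted p = 0.283). The 95% interval of the difference lay between -0.5 and 0.5 for 46 of 59 genes, and for 45.5% of all features, so for the other 13 the interval reached a difference of that size. A single array decided some calls: ATPsynC passed without DmD8 array 5 (-0.58, adjusted p = 0.0489) or Kc array 2 (-0.52, adjusted p = 0.0466; all alternatives 0.0466 to 0.931), and COX6B without DmD8 array 4 (-0.42, adjusted p = 0.0397; all alternatives 0.0397 to 0.933).

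The part of the signal that changed sign with the dye was larger than the mean for many of these genes. The dye term, the distance of either orientation from their mean, had a median absolute size of 0.17 in DmD8 and 0.14 in Kc, against 0.08 for the means. All features showed the same order, with 0.18 and 0.16 for the dye term against 0.12 and 0.11 for the means. In the limma fit it passed for 12 of 59 genes in DmD8 and 17 of 59 in Kc, against 17.1% and 20.0% of all features; this test was added with the values known. It passed in both lines for 9 genes (15.3%), with the same sign in all 9, and for 1192 of all 12952 features (9.2%), with the same sign in 1190. ND-13A, an accessory subunit of complex I, had a mean of 0.24 on the Cy5 arrays of DmD8 and -0.63 on its swaps, and of 0.52 and -0.44 in Kc. Across the 59 genes the dye terms of DmD8 and Kc had a Pearson correlation of 0.78 (0.75 across all 12952 features), and the means one of -0.03. The points share probes and arrays, so this is a description. With the swaps turned in sign the dye term becomes the mean, which gives the 12 and 17 calls named above.

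**Figure D4:**
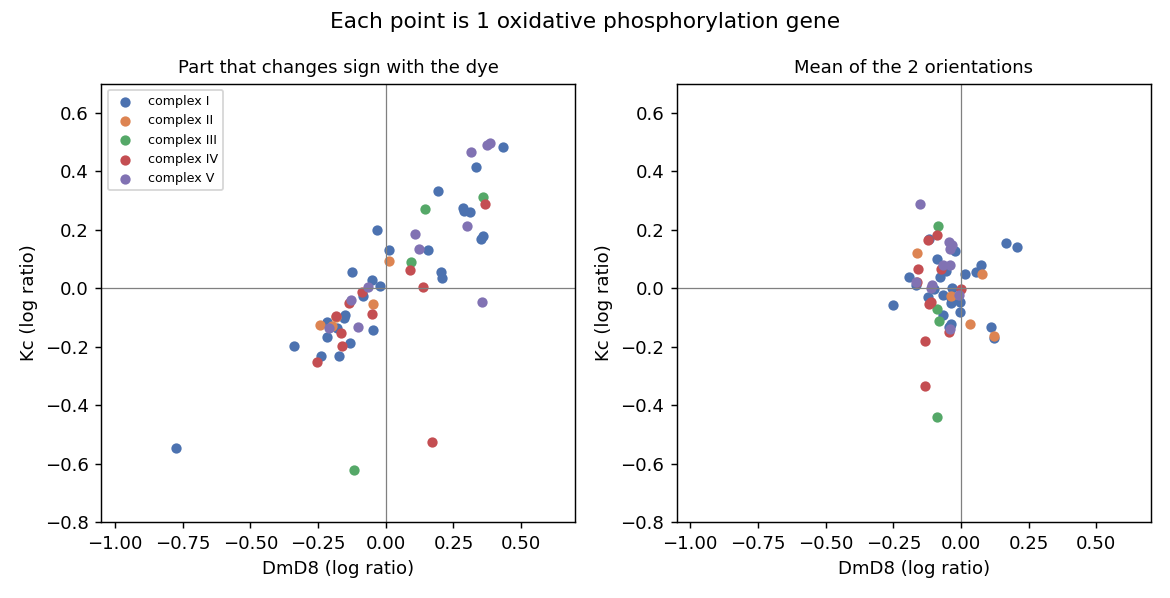
Each point is 1 of 59 tested genes, coloured by complex, with DmD8 on the horizontal and Kc on the vertical axis, both in log ratio units. Left, the dye term, which lies along a rising line (Pearson correlation 0.78). Right, the mean of the orientations, with a correlation of -0.03.

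Subunits and paralogs could be set side by side for 13 pairs, of which 7 had both members tested. For ND-20 and ND-20L the DmD8 means were -0.07 ± 0.08 and -0.12 ± 0.09, and the Kc means -0.02 ± 0.07 and -0.03 ± 0.08. ATPsynbeta and ATPsynbetaL stood at -0.03 ± 0.07 and -0.04 ± 0.13 in DmD8 and at 0.15 ± 0.07 and 0.08 ± 0.12 in Kc. COX4 and COX4L stood at -0.07 ± 0.07 and -0.13 ± 0.12 in DmD8 (COX4L on 3 arrays) and at 0.07 ± 0.06 and -0.18 ± 0.08 in Kc. ND-51 kept values close to 0 (-0.03 to 0.18 in Kc) where ND-51L1 ran from -0.46 to 0.28 and ND-51L2 from -0.26 to 0.36. SdhC and SdhCL had opposite signs in both lines, and neither passed in either. Sequence likeness between a pair may let their probes share signal, which was not tested. Differences within pairs were not tested.

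The 11 untested genes were 9 paralogs and the accessory subunits ND-B8 and ND-B12. ND-B12 had values of -0.17, -0.81 and -0.24 on 3 DmD8 arrays of 1 orientation and from -1.68 to 1.09 on 5 Kc arrays. ND-B8 had 1 DmD8 value, -0.03, and 4 Kc values from -0.09 to 0.38. Among the paralogs UQCR-14L was above 0 on all 6 Kc arrays (0.10 to 0.69) and below 0 on the 2 DmD8 arrays with a value (-0.18 and -0.10). COX7AL ran from -0.61 to 0.01 on 6 Kc arrays and COX5BL from -1.78 to 0.41 on 5. The other 6 paralogs (ND-24L, SdhAL, SdhBL, COX6CL, ATPsynCF6L and ATPsynGL) had 1 to 3 values in each line, between -0.52 and 0.75.

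Of the 4 genes with 2 probes, ATPsynbeta gave means of -0.05 and -0.02 in DmD8 and 0.09 and 0.20 in Kc, and COX7C gave -0.18 and -0.14 in DmD8 and 0.12 and 0.01 in Kc. The probes of ATPsynO lay on both sides of 0 in each line (0.03 and -0.05 in DmD8, -0.09 and 0.05 in Kc), as did those of ATPsynB in Kc (-0.08 and 0.07).

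Genes around the respiratory chain were taken from lists written with earlier results of these data known. Of 7 tested chain and synthase genes with other names, among them Cyt-c1 and RFeSP of complex III, levy and cype of complex IV and blw of complex V, none passed in DmD8 or in Kc with limma, nor at an unadjusted p under 0.05. Of 11 assembly factors, Sdhaf3 among them, none passed either, with 2 at an unadjusted p under 0.05 in DmD8 and 4 in Kc. Such a p (limma) was found for 19.7% of all features in DmD8 and 24.6% in Kc.

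Calls were found for single genes that feed or serve the organelle, and some held more widely than others. Over all features 7.24% passed in DmD8 and 11.9% in Kc (limma). The lists are short and were not tested as sets. Of 9 tested carriers and porin genes 2 fell in DmD8 and 2 fell in Kc. MME1, a mitochondrial magnesium exporter, had a mean of -1.52 ± 0.08 in DmD8 (limma, adjusted p = 1.82e-06, below 0 on 5 of 5 arrays) and -0.50 ± 0.08 in Kc (adjusted p = 0.00158, 6 of 6). The aspartate and glutamate carrier aralar1 fell in DmD8 (-0.94 ± 0.12, adjusted p = 0.000791, 5 of 5) and the carnitine carrier colt in Kc (-0.35 ± 0.06, adjusted p = 0.00498, 6 of 6). These 4 calls were kept under all 19 alternatives that used the arrays of both orientations as deposited. With the swaps left out that of colt was lost (-0.26, adjusted p = 0.0939), and with the swaps turned in sign all 4 were.

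Of 6 tested regulators of respiratory genes 1 fell in DmD8 and 2 rose in Kc, where 4.16% of all features fell in DmD8 and 7.10% rose in Kc. The Nrf2 factor of flies, cnc, fell in DmD8 (-0.37 ± 0.08, adjusted p = 0.0147, below 0 on 5 of 5 arrays) and rose in Kc (0.58 ± 0.07, adjusted p = 0.000363, above 0 on 6 of 6). Its line difference was -0.95 ± 0.11 (limma, adjusted p = 0.000271); this and the Kc call were kept under all 19 of those alternatives, and the DmD8 call under 15. The hypoxia factor sima rose in Kc (0.33 ± 0.08, adjusted p = 0.0202, 5 of 6), a call kept under 12 of 19 (adjusted p up to 0.16). Without the swaps its mean was 0.10 (adjusted p = 0.592).

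The remaining calls held less widely. Their counts stand against 7.24% of all features in DmD8 and 11.9% in Kc. At an unadjusted p under 0.05 (limma) those shares were 19.7% and 24.6%. Of 11 tested genes of the citric acid cycle and pyruvate dehydrogenase 1 rose in DmD8, Pdk, the kinase that shuts pyruvate dehydrogenase (0.48 ± 0.13, limma, adjusted p = 0.0425, above 0 on 5 of 5 arrays), kept under 10 of the 19 alternatives and lost without the swaps (adjusted p = 0.0882). None passed in Kc, where 5 had an unadjusted p under 0.05. Of 11 import and protein quality genes the chaperone Hsc70-5 (-0.44 ± 0.09, adjusted p = 0.0124, below 0 on 3 of 5) and the protease Lon (-0.38 ± 0.10, adjusted p = 0.0381, 4 of 5) fell in DmD8, kept under 16 and 6 of 19. On the Cy5 arrays alone their DmD8 means were 0.08 and 0.04, so both values rest on the swaps. None of the 11 passed in Kc with limma, where 1 had an unadjusted p under 0.05. Of 6 genes for expression of the mitochondrial genome the RNA-binding protein gene bsf fell in DmD8 (-0.46 ± 0.11, adjusted p = 0.0287, 5 of 5), kept under 14 of 19 and lost without the swaps (-0.37, adjusted p = 0.183). The transcription factor gene mtTFB2 rose in Kc (0.26 ± 0.08, adjusted p = 0.0432, above 0 on 5 of 6), kept under 6 of 19 and lost without the swaps (0.32, adjusted p = 0.0754).

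Other large complexes gave different counts on the same arrays, with no test between groups. The shares over all features were 7.24% in DmD8 and 11.9% in Kc. Of 67 tested mitochondrial ribosomal protein genes 1 rose and 1 fell in each line, with medians of 0.05 in DmD8 and -0.10 in Kc. Of 39 cytosolic ribosomal protein genes none passed in DmD8 (5 at an unadjusted p under 0.05 with limma) and 3 rose in Kc, with medians of -0.09 and 0.07. Of 31 genes with the prefixes of proteasome subunits, Prosap among them, which is no subunit, 26 fell in DmD8 (median -0.48) and 1 rose in Kc (median 0.02). The oxidative phosphorylation genes, with medians of -0.07 and 0.00, had no calls in either line.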

How the data were processed

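The series design text names 2-colour long-oligonucleotide arrays with spots measured by the Dapple software. The deposited numbers are log ratios, taken here as log2 values from their range (-3.35 to 6.51); how the authors corrected, normalized and oriented them before deposit is not stated in these sources, and swaps were read as already turned. Platform annotation named the probes (12658 with 1 symbol, 96 with several, 4504 unnamed; 12012 matched RefSeq by gene ID), and probes of a gene were averaged. The R package limma (3.58.1, R 4.3.3) estimated a mean and a dye effect for each line from 11 arrays over 12952 features, with Benjamini-Hochberg adjustment at 0.05. Values after ± in the text are its standard errors. The fit was also run on simulated data with independent noise on each array. That run could not check errors that come from having 3 biological replicates per experiment. Figures used matplotlib 3.10.9.

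Members and lists were chosen with earlier results of these data known. Genes named are the highest and lowest mean of each complex and line, subunits with a paralog, and list genes past the threshold (at most 3 per list and line). ND-75, SdhD, COX5A, ATPsyngamma, ND-13A, the untested genes and those with 2 probes were added after their values were seen. A planned promoter motif search was not analysed here. The number of arrays limits the precision.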

Additional observations from a re-analysis of the deposited data

Results flagged for a closer look

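Of 101 sets of arrays examined, 3 held 1 array far from the others, where chance gives about 1 in 20. COX6B had a DmD8 value of 0.34 on a dye swap, where the next highest was -0.18. In Kc COX6B had a highest value of 0.38, with the next at 0.19. UQCR-Q had a lowest DmD8 value of -0.45, also on a swap, with the next at -0.01.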

How the results depend on the processing

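The count of 0 genes was recomputed under 23 alternatives in each contrast, among them centring, quantile normalization, no dye term, other filters, single probes and swaps averaged with a replicate under every pairing. In DmD8 it moved only with the swaps turned in sign, to 12. In Kc it moved to 17 with the swaps turned and to 11 of 58 without the swaps. Leaving out 1 array gave 0 to 0 in DmD8, 0 to 1 in Kc and 0 to 1 for the difference. Under single pairings at most 1 gene passed in Kc or the difference. With arrays centred on their medians the median of the genes in DmD8 was -0.024 (all alternatives -0.08 to -0.02). With the swaps turned, these members passed with the opposite sign: in DmD8 UQCR-6.4 (0.36), ATPsynG (0.31), ATPsynC (0.38), ND-20 (0.31), ND-51L2 (0.36), ND-13A (0.43) and ATPsynB (0.30), and in Kc ND-B14.5AL (-0.55), UQCR-6.4 (0.31), COX6AL (0.29) and ND-20 (0.26). Called list genes that changed sign there were, in DmD8, aralar1 (0.30), Hsc70-5 (0.52), Lon (0.42) and bsf (0.083), and in Kc colt (0.087), cnc (-0.20), sima (-0.23), ush (-0.17), srp (-0.15) and Hml (-0.26), while Pdk in DmD8 stood at 0.00. This follows from the setting, which exchanges the mean and the dye term. Without the swaps Hsc70-5 (0.080) and Lon (0.042) changed sign in DmD8. Outside the orientation settings 5 of the 2115 values recomputed for 38 members crossed the threshold. Calls over all features ranged from 159 to 2211 in DmD8, from 498 to 2592 in Kc and from 0 to 1465 for the difference (938, 1542 and 1415 as reported). Kc arrays 2 and 5 stood apart in Hsp26 (1.90 and 1.92, the other 4 from -0.27 to 0.14); without them, a setting chosen after seeing the data, 0 genes passed in each contrast. The replicate numbers of the titles do not pair the lines: deviations of arrays with the same number correlated at -0.325 to 0.197. With the number as a replicate block, 0 genes passed for the difference, and 496 of all features.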

Other observations

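Of 6 tested blood cell marker genes 3 rose in Kc and none passed in DmD8, where 1 had an unadjusted p under 0.05 with limma. Of all features 7.10% rose in Kc. Not called in Kc were Pxn (0.11 ± 0.07, limma, adjusted p = 0.358), eater (0.15 ± 0.14, adjusted p = 0.587) and crq (-0.05 ± 0.09, adjusted p = 0.813). In Kc the GATA factor srp had a mean of 0.52 ± 0.07 (limma, adjusted p = 0.000723, above 0 on 6 of 6 arrays), its cofactor ush one of 0.74 ± 0.08 (adjusted p = 0.000174, 6 of 6) and Hml, a hemocyte protein gene, one of 0.66 ± 0.16 (adjusted p = 0.0242, 5 of 6). The calls of srp and ush were kept under all 19 alternatives that used both dye orientations as deposited, and that of Hml under 13 of 18. Without the swaps the mean of srp was 0.38 (adjusted p = 0.0574) and that of Hml 0.40 (adjusted p = 0.174), and neither passed. With the swaps turned in sign none of the 3 passed. The list was written with earlier results of these data known.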
